A study of Homo sapiens with 4 samples.

Results

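The stretch described here is a set of 40 neighbouring human genes on the long arm of chromosome 19 (band 19q13), listed because of their high level in these data and because PANC-1 is known to carry an amplification there. The listed genes run from ECH1 to LTBP4, and all 40 of 40 were found among the 36601 human genes of the files and placed in the GENCODE 29 annotation of GRCh38. The PANC-1 line comes from a human ductal adenocarcinoma of the pancreas. It was grown as tumours under the skin of nude mice, which lack a normal thymus and most T cells, and 1 single-cell library each was made from a control tumour, a tumour given agrimoniin (an ellagitannin of agrimony plants), one given erlotinib (which blocks the kinase of the EGF receptor) and one given both. The labels give no dose, time, mouse age or number of pooled tumours, and the design text of the series writes cyranin where the labels write erlotinib. With 1 library a group there is no replicate check, so no test was made, and each contrast compares libraries, not treatments. Every interval covers only the counting error of UMIs or, where parts are counted, of parts.

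Every barcode held UMIs (unique molecular counts) of both species, so each barcode was divided into a human part (UMIs of human genes) and a mouse part (UMIs of mouse genes). Parts may hold more than 1 cell. The 4 libraries held 202 to 306 barcodes, and 193 (control), 283 (agrimoniin), 292 (erlotinib) and 245 (combination) human parts were kept. Kept human parts held 2420470 to 3775711 UMIs a library, and no barcode sequence occurred in more than 1 library. Levels are given as CPM, the summed UMIs of a gene per 1000000 human (or mouse) UMIs of the kept parts. The human parts carried VIM at 5609 to 6272 CPM and the epithelial genes KRT8 (36.04 to 49.2 CPM), KRT18 (47.1 to 65.4 CPM) and EPCAM (18.2 to 25.2 CPM), but KRT19 was at 0 to 0.530 CPM, KRT7 at 0.813 to 1.24 CPM and CDH1 at 0.643 to 1.85 CPM. Of the human immune markers, CD3E had no UMI, PTPRC was at most at 0.826 CPM, and CD68 was at 7.68 to 9.09 CPM. Of the human fibroblast markers, COL1A1 was high (5545 to 6500.1 CPM) while COL1A2 stayed at or below 2.89 CPM and PDGFRA at or below 0.271 CPM.

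An amplicon is a piece of a chromosome present in extra copies, and its genes are usually copied together whatever they do. Extra copies raise the transcripts of genes that are already switched on in the cell, while genes that are silent there mostly remain silent. The 19q13 amplicon of pancreatic cancer is best known for AKT2, a kinase that passes on growth factor signals, and also holds PAK4, a kinase of cell movement, and PAF1 and SUPT5H, which act in the elongation of transcripts. No DNA was measured here, and copy number and transcript level per copy cannot be told apart in these values.

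Promoter sequences are shown for the genes at the ends of the raised stretch, for a gene before it, for RPS16, the most abundant member, and for PSMC4, a member of high level, all chosen after their values were seen. They come from RefSeq (GRCh38.p14), hold only bases upstream of the start and outside any GENCODE 29 exon, and read 5′ to 3′ on the strand of the gene. Capitals mark the GC box, the letters GGGCGG or their complement, to which Sp-family transcription factors can bind.
PSMD8, chr19:38374321-38374535, plus strand: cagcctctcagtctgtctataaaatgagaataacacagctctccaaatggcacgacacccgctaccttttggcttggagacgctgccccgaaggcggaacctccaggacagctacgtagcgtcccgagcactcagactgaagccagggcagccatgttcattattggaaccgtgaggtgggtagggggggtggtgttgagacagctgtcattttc
EIF3K, chr19:38618938-38619081, plus strand: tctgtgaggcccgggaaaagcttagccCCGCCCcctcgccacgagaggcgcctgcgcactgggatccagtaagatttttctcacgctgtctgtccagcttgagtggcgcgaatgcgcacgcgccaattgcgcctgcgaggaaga
RPS16, chr19:39435950-39436155, minus strand: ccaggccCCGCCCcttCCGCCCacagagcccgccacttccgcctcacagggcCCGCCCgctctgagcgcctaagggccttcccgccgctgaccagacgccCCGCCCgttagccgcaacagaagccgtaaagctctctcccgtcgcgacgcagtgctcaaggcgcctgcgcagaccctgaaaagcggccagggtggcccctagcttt
PSMC4, chr19:39970915-39971004, plus strand: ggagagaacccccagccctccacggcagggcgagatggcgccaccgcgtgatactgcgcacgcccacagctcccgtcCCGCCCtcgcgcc
AKT2, chr19:40285537-40285595, minus strand: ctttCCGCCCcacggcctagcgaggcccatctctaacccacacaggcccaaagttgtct
PSMD8 lies before the raised stretch as set by hand below, with EIF3K as its first and AKT2 as its last gene. The run of the running median, also given below, starts earlier, at KCNK6, and takes in PSMD8. In 300-base windows (250 before the start and 50 after it), the GC box was in 29 of the 37 member promoters that matched, against 44.5% of 27305 promoters. Up to AKT2 it was in 22 of 29 matched members. The raised FBXO27, NFKBIB and EID2B lacked it, as did SIRT2, FCGBP, ZNF780A and ZNF780B. Of the matched members after AKT2, none of them raised, all except PRX had it. The box was thus not particular to raised members. The CCAAT box (CCAAT) was in 19 of 37 against 35.7%, the TATA box (TATAAA) in 1 against 12.02%, and the ETS core (CCGGAAG) in 7 against 10.6%, each counted on both strands. The median GC content of the windows was 64.7% for the members and 58.3% for all promoters. A match is a match of letters, not a bound site.

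The members differed in level by more than 4 orders of magnitude. RPS16, a protein of the small ribosomal subunit, was at 14882, 16059.5, 17089 and 16865 CPM in the control, agrimoniin, erlotinib and combination libraries, and gave 46.3% of the summed level of all members. Its reads can be shared with processed pseudogenes, so its level is uncertain. ZFP36, which binds and destabilises AU-rich messenger RNAs and is an immediate early gene, was at 7688, 5913, 8645 and 7541 CPM in the same order and gave 21.3%. It was lowest in the agrimoniin library, and the other 3 libraries lay above it. PSMC4, an ATPase of the proteasome cap, was at 1934, 2013, 2669 and 2257 CPM. FBL, the methyltransferase of box C/D small nucleolar particles, was at 1379, 1369.9, 1486 and 1425 CPM, nearly level across the 4 libraries. In all, 21 members were at or above 100 CPM in every library, 4 were under 10 CPM in every library, and 9 were under 20 CPM in the mean. UMI counts of a 3 prime kit count transcript ends and are not scaled by length, and capture differs between genes, so the order of members is a rough one.

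The next members by level were also present in every library. SAMD4B, an RNA-binding protein, was at 794, 882, 939.96 and 880.2 CPM in control, agrimoniin, erlotinib and combination. SUPT5H, a subunit of the elongation factor DSIF, was at 797, 727, 869.5 and 811 CPM. AKT2 was at 610.2, 672, 798.5 and 698 CPM, lowest in control and highest in erlotinib. The zinc-finger gene ZNF780B was at 563, 532, 589 and 544 CPM, with the libraries close together. MED29, a subunit of the Mediator complex, was at 474, 541, 526 and 562 CPM. FBXO27, an F-box protein that picks glycoproteins for ubiquitin ligases, was at 392, 492, 547 and 473 CPM. Control was the lowest library for both. TIMM50, a receptor of the mitochondrial import complex TIM23, was at 418, 480.4, 505 and 431 CPM. HNRNPL, a splicing regulator, was at 462, 395, 498 and 433 CPM, lowest in agrimoniin.

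**Figure D1:**
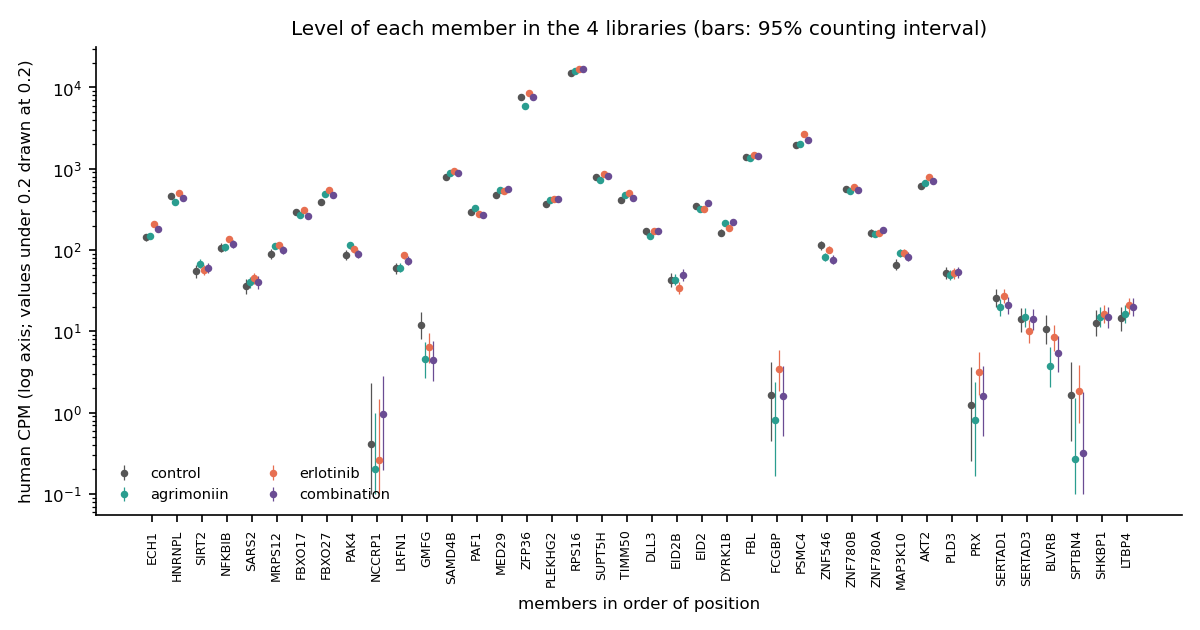
Human CPM (log axis) of the 40 members in order of position, with 1 point a library and exact 95% counting intervals; values under 0.2 CPM are drawn at 0.2 and intervals are not drawn below 0.1. RPS16 and ZFP36 stand highest, the members from PLD3 to LTBP4 stand at 1.02 to 51.7 CPM in the mean, and the 4 libraries lie close together for most members.

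Each human gene was set against a like measure, the same-named mouse gene in the host parts kept from the same libraries. The scale was log2((human CPM + 10)/(mouse CPM + 10)), and the median of 9051 measured pairs was subtracted. On this centred log2 scale 0 is the typical gene and 1 is 2-fold above it, the size called raised here. Host parts are other cell types, mostly with fibroblast and macrophage markers, so a gene can stand out through a low level in those cells. The pseudocount of 10 CPM understates the ratio of low genes. A same-named mouse gene existed for 36 members, all except SUPT5H, ZNF546, ZNF780A and ZNF780B. Of these, 31 had a mean of human and mouse CPM of at least 10 and were measured, 23 of them with at least 10 CPM in mouse, while 8 passed through the human level alone. The others did not pass: NCCRP1 was at 0 to 0.965 human CPM over the libraries, FCGBP at 0.813 to 3.44, PRX at 0.813 to 3.18, SPTBN4 at 0.271 to 1.85 and SERTAD3 at 10.1 to 14.9. Of the zinc-finger genes without a mouse partner, ZNF546 was at 76.2 to 114 CPM and ZNF780A at 159.6 to 174 CPM. The members were listed for their level, so the following values are a description and support nothing by themselves.

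Of the 31 measured members, 24 were raised, where 19.2% of all measured pairs were. The median of the measured members was 2.17 on the centred log2 scale, a 4.49-fold excess. By library it was 2.22 (control), 2.27 (agrimoniin), 2.46 (erlotinib) and 2.36 (combination). The raised members ran from NFKBIB, an inhibitor of NF-kB, at 1.08, to FBXO27 at 5.24 and PSMC4 at 5.14. The nearest member under the threshold was SHKBP1 at -0.04. FBL stood at 4.45, TIMM50 at 4.30, EID2, an inhibitor of differentiation, at 4.13 and MED29 at 4.12. DLL3, an inhibitory Notch ligand, stood at 3.93 with 150 to 173 CPM in the human parts and no UMI in the mouse parts. The F-box gene FBXO17 stood at 3.65, PLEKHG2 at 2.90 and EID2B at 1.72.

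By role, the 8 measured members of transcription and RNA were all raised, with a median of 2.34, among them PAF1 (2.17), the name-giving subunit of an elongation complex. The 8 measured members of translation, mitochondria and protein turnover were all raised as well, with a median of 3.65. They include MRPS12 (2.88), a protein of the mitochondrial ribosome, and ECH1 (2.15), an enzyme of fatty acid oxidation. Of 11 measured signalling genes 7 were raised, with a median of 1.93. AKT2 stood at 2.59, DYRK1B, a kinase linked to quiescence, at 3.87, PAK4 at 2.14, and MAP3K10, a kinase upstream of JNK, at 1.93. Of 4 measured membrane, matrix and other genes 1 was raised, LRFN1 (2.66), a synaptic adhesion protein. The 3 others of this role that were measured, PLD3, BLVRB and LTBP4, lie after AKT2, as do the signalling genes SERTAD1 and SHKBP1. All measured members of the first 2 roles lie up to AKT2. Role and position were therefore not separated here. These roles were assigned with earlier results known.

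Within the stretch, SIRT2 and GMFG were not raised. SIRT2, a deacetylase of tubulin and histones, was at 54.5, 68.3, 57.2 and 60.5 CPM in control, agrimoniin, erlotinib and combination, against 73.7 CPM in the mean of the mouse parts, a centred value of -0.46. GMFG, a regulator of actin branching known from blood cells, was at 11.98, 4.61, 6.36 and 4.50 CPM, against 55.7 CPM in mouse, a centred value of -2.17. By GENCODE gene ends, 23 bases separate it from SAMD4B, which is read in the opposite direction and reached 2.52, but the RefSeq starts, at 39336043 and 39342421, lie farther apart. SIRT2 and NFKBIB, also read in opposite directions, overlap by their first bases in GENCODE and stood at -0.46 and 1.08. In the pair PAF1 and MED29, with 107 bases between their GENCODE starts, both were raised.

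The other 5 measured members below 0 all lie after AKT2. PLD3, a lysosomal exonuclease, was at 52.5, 49.3, 51.6 and 53.4 CPM, against 156 CPM in mouse, a centred value of -1.64. BLVRB, biliverdin reductase B, was at 10.7, 3.79, 8.48 and 5.47 CPM and stood at -1.54. SERTAD1, a cofactor of E2F transcription, was at 26.03, 19.8, 27.3 and 20.9 CPM and stood at -1.18. LTBP4, which binds latent TGF-beta in the matrix, was at 14.5, 16.5, 20.9 and 19.9 CPM and stood at -0.30. SHKBP1 was at 12.8, 15.2, 16.4 and 15.1 CPM. These 5 had a median of -1.18, against 2.62 for the 26 measured members up to AKT2.

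The raised genes began before the listed ones. EIF3K, a subunit of a translation initiation factor, lies at chr19:38619082-38636955 (GRCh38) and was at 608, 570.4, 680.4 and 628 CPM, with a centred value of 3.57. ACTN4, an actin crosslinker, stood at 2.52 and CAPN12, a calpain protease, at 2.05. Before EIF3K, PSMD8, a proteasome lid subunit, stood at 0.21 and KCNK6, a potassium channel, at -0.08. EIF3K was taken as the start by a limit set by hand just after PSMD8, and farther upstream SPINT2 was also raised (5.64). From the start of EIF3K to the end of AKT2 (position 40285536) lay 1.67 Mb. In this span 29 measured pairs had a median of 2.59, and 27 of them were raised. The start, the length and these counts follow from that limit. AKT2 is followed by PLD3 after 0.0629 Mb, and RYR1, which was under the filter at 11.9 CPM, ends 0.0315 Mb before EIF3K. The span therefore lay earlier than the interval from 38.8 to 40.6 Mb by which the genes were listed, and 8 of the 40 listed genes, from PLD3 to LTBP4, lay outside it. Among 53 protein-coding genes between both ends, 32 reached 10 CPM, 14 were under 1 CPM and 7 had no UMI.

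On the flanks, the 10 measured pairs before EIF3K had a median of 0.99, with 5 of 10 raised and SPINT2, a serine protease inhibitor of epithelia, at 5.64. The 10 measured pairs after AKT2 had a median of -0.86, and 0 of 10 were raised. The upstream edge was thus less clear-cut than the downstream one. A running median of 7 neighbouring pairs stayed at or above 1 for 31 windows, from KCNK6 to AKT2, and reached 4.13. Over the genome there were 151 such runs, the second longest had 13 windows, and the highest running median of any other run was 2.31. The run ended at AKT2 in each library alone. Its start moved with the settings. It lay at EIF3K (38.6 Mb) with a running median of 5 pairs or a threshold of 1.5, at SDHAF1 (35.995 Mb, 41 windows) with a pseudocount of 1 CPM, at SIPA1L3 (37.9 Mb, 23 windows) with a mouse CPM of at least 10, and at NFKBIB (38.9 Mb, 23 windows) with a pseudocount of 50 CPM. With no filter on low values the run had 17 windows, from GMFG to MAP3K10. A separate run of 7 windows, from SDHAF1 to SIPA1L3, lay just upstream. SDHAF1 and SIPA1L3 are named after their values were seen.

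**Figure D2:**
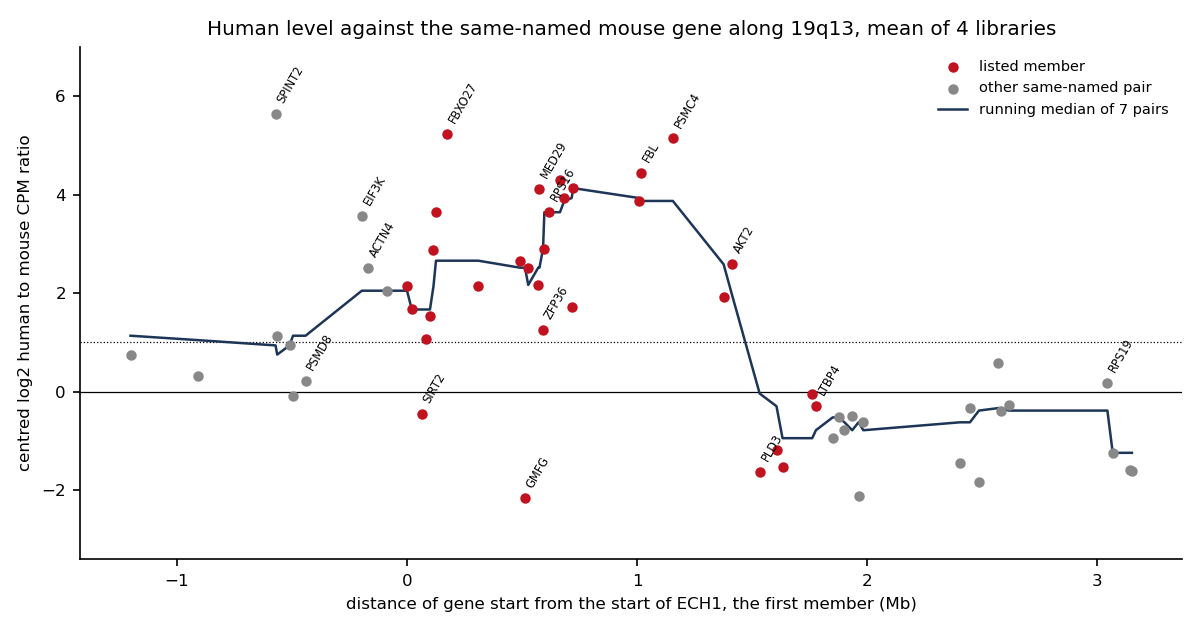
Centred log2 human to mouse ratio (vertical axis, mean of 4 libraries) of measured pairs by distance in Mb from the start of ECH1; red points are members, grey points other genes, the line is the running median of 7 pairs and the dotted line marks 2-fold. The highest point, SPINT2 (5.64), lies before EIF3K (3.57); within the stretch FBXO27 (5.24) and PSMC4 (5.14) are highest, and the first 10 pairs after AKT2 lie below 0, while some pairs farther on lie above it.

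Many members work in complexes or families whose other genes lie elsewhere in the genome, and these partners show what the same comparison gives outside 19q13. The list held 94 partner genes, 86 of them measured, with a median of 0.06 on the centred log2 scale. The 5 other ATPase subunits of the proteasome cap stood between -1.002 and 0.52, against 5.14 for PSMC4, and their human levels were 64.8 to 108 CPM. NOP56, NOP58 and SNU13, which form small nucleolar particles with FBL, stood between -0.27 and 1.18, against 4.45. AKT1 stood at -0.65, against 2.59 for AKT2. The 16 measured Mediator subunits stood between -1.70 and 1.503, against 4.12 for MED29.

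The 12 small-subunit ribosomal proteins on the partner list stood between -2.38 and 1.98, against 3.64 for RPS16. The closest case was SARS2, the mitochondrial seryl-tRNA synthetase, at 1.540 against 1.538 for IARS2. All 15 raised members that had a measured partner stood above every one of them, but those 15 were picked by being raised. Of the 6 compared members that were not raised, SIRT2 stood above 1 of its 4 measured partners and SERTAD1, LTBP4, BLVRB, PLD3 and GMFG above none. Over all 21 members compared, the median difference from the partner median was 2.15 on the log2 scale.

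**Figure D3:**
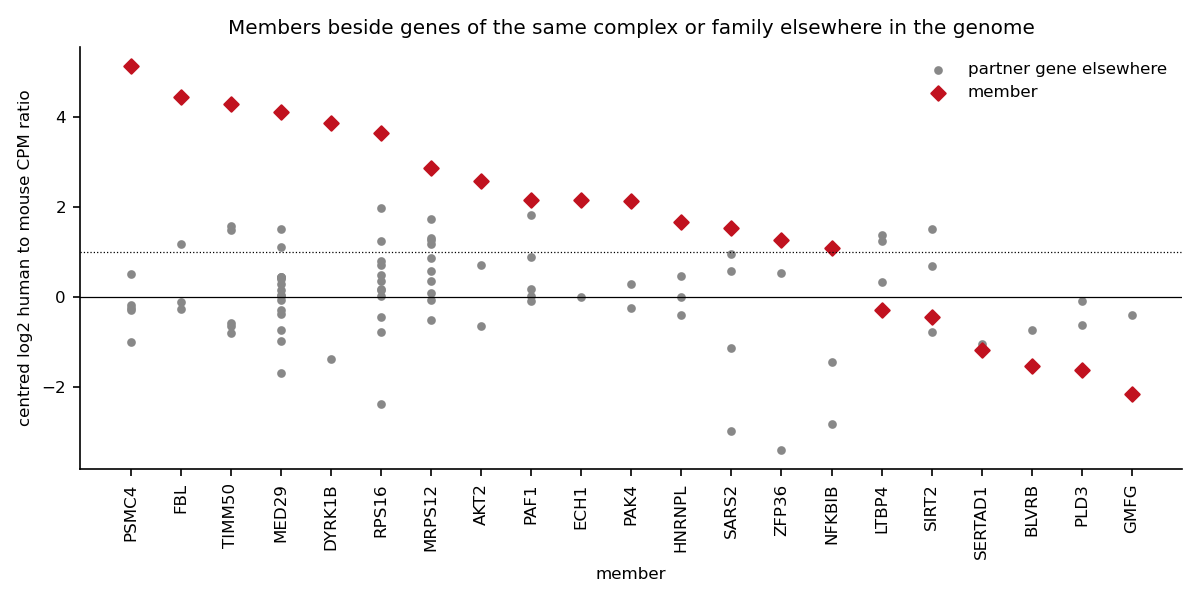
Centred log2 human to mouse ratio of 21 members (red diamonds) and of measured partner genes of the same complex or family (grey points), members in falling order. Members from PSMC4 (5.14) to NFKBIB (1.08) lie above all their partners, SARS2 and IARS2 differ by less than the symbol, and LTBP4, SERTAD1, BLVRB, PLD3 and GMFG lie below theirs.

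The listing did not use the contrast between libraries. No member passed 1.5-fold at a mean of at least 20 CPM in any of the 5 comparisons made. For agrimoniin against control 0 of 31 members passed, where 1.63% of all genes passed upward and 0.992% downward. For erlotinib against control it was 0 of 31, with 1.94% and 1.61% of all genes, and for the combination against control 0 of 31, with 1.64% and 1.59%. For the combination against agrimoniin it was 0 of 31, with 0.725% and 1.03%, and against erlotinib 0 of 32, with 1.5% and 1.19%. At these background shares, 0 of 31 or 32 is not a result about the members. At a fold of 5 to 4 in either direction, 8, 9, 4, 2 and 3 members passed in the same order of comparisons, where 17.6%, 20.1%, 19.7%, 14% and 15.9% of all genes did. With no filter on low values, 6, 4, 4, 2 and 5 of 40 passed 1.5-fold, where 28.1%, 28.4%, 27.9%, 27.8% and 28.9% of all genes with a UMI did. The 3 comparisons with control share that library.

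Smaller differences were present. The summed level of the members was 33146, 32936, 38133 and 35848 CPM in the control, agrimoniin, erlotinib and combination libraries. The ratio to control was 0.994 (exact 95% interval 0.985 to 1.003) for agrimoniin, 1.15 (1.14 to 1.16) for erlotinib and 1.08 (1.07 to 1.09) for the combination. With human parts of at most 10% mitochondrial UMIs, the ratio of the combination turned to 0.994, and that of agrimoniin was 0.909. Without RPS16 and ZFP36, the ratio of agrimoniin was 1.04 (1.02 to 1.05) and that of erlotinib 1.17 (1.15 to 1.19). The median mitochondrial share of human parts was 10.1%, 9.65%, 8.97% and 9.13% in the same order of libraries. Ratios without mitochondrial genes in the total are given in the closing section. Beyond these settings, the part of the mitochondrial share in the ratios was not tested.

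Against control, 26 of 31 members were higher in the erlotinib library, where 53.2% of all genes were, 24 of 31 in the combination, against 53.1%, and 19 of 31 in agrimoniin, against 55.1%. In erlotinib PSMC4 had a ratio of 1.38 (1.33 to 1.43), AKT2 one of 1.31 (1.23 to 1.39) and ECH1 one of 1.45 (1.28 to 1.65). In agrimoniin ZFP36 had a ratio of 0.769 (0.754 to 0.784), DYRK1B one of 1.33 (1.18 to 1.51) and MAP3K10 one of 1.39 (1.14 to 1.68). In the combination the lowest was ZNF546, a zinc-finger gene, at 0.668 (0.560 to 0.798), and the highest DYRK1B at 1.36 (1.199 to 1.54). The combination was higher than agrimoniin for 21 of 31 members, against 46.2% of all genes, and higher than erlotinib for 8 of 32, against 48.9%. Without replicates, the spread between tumours of 1 group is unknown for all of these.

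Human parts differed in how much of their RNA came from the stretch. The members took 3.27% of a part's human UMIs in the mean of the control library, 3.22% for agrimoniin, 3.74% for erlotinib and 3.56% for the combination. The excess CV, the spread between parts beyond counting error relative to the mean, was 45.0%, 40.8%, 38.7% and 38.2%. Much of it came with ZFP36, whose own excess CV was 129% in the mean of 4 libraries. Without RPS16 and ZFP36, the other 38 members took 1.04%, 1.08%, 1.24% and 1.12%, with an excess CV of 26.1%, 26.4%, 25.6% and 27.9%. For 60 runs of neighbouring genes over the genome with about the same summed level (11345 CPM), the median excess CV was 16.1% (11.04% to 43.4%), and 3 of 60 were above the members' mean of 26.5%. Those runs held 143 to 521 genes each, and PSMC4 alone gave 19.6% of the sum of the 38 members, so the sums are unlike in the number of genes. Taken singly, the 28 members of at least 50 CPM had a median excess CV of 53.1%, against 58.8% over 4026 genes of at least 50 CPM.

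In 0.1% bins, the share of these 38 members dipped at 0.9% to 1% in each library, below the bins on both sides. This border was set after seeing the data, and each library had other bins below both neighbours. Among these were 0.7% to 0.8% in control (14 parts) and 1.4% to 1.5% in agrimoniin (14 parts). At 1.3% to 1.4% the same held for erlotinib (38 parts) and the combination (21 parts). Under 0.9% lay 68 of 193 parts in control (35.2%, exact Clopper-Pearson 95% interval 28.5% to 42.4%), 95 of 283 in agrimoniin (33.6%, 28.1% to 39.4%), 62 of 292 in erlotinib (21.2%, 16.7% to 26.4%) and 76 of 245 in the combination (31.02%, 25.3% to 37.2%). Between both limits lay 10, 18, 5 and 18 parts. The erlotinib library held the lowest share of low parts, which describes 1 library a group. These intervals take the parts of a library as independent draws, and parts are not replicates. The dip was deepest in erlotinib and shallow in agrimoniin and the combination, and it is a feature of 0.1% bins. The correlation of the share with log depth was 0.01 to 0.17, with the mitochondrial share -0.22 to -0.08, and with the human share of the barcode 0.03 to 0.25, over the parts of a library.

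The first and the last 20 listed genes moved together from part to part as sums, in which genes up to AKT2 give most UMIs. The Pearson correlation between the share of the first 20 and of the last 20 members by position was 0.55 over 193 parts in control, 0.52 over 283 in agrimoniin, 0.45 over 292 in erlotinib and 0.48 over 245 in the combination. Without RPS16 alone it was 0.30, 0.19, 0.15 and 0.16, and without RPS16 and ZFP36 it was 0.65, 0.52, 0.62 and 0.62. Thinned to 5000 human UMIs a part, the last set was 0.52, 0.42, 0.55 and 0.53. In the same 60 runs, with their larger number of genes, the median correlation between their sides was 0.22 (-0.34 to 0.83), and 1 of 60 was above the members' mean of 0.60. Parts of a library share the library and its composition, and the parts are not replicates.

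**Figure D4:**
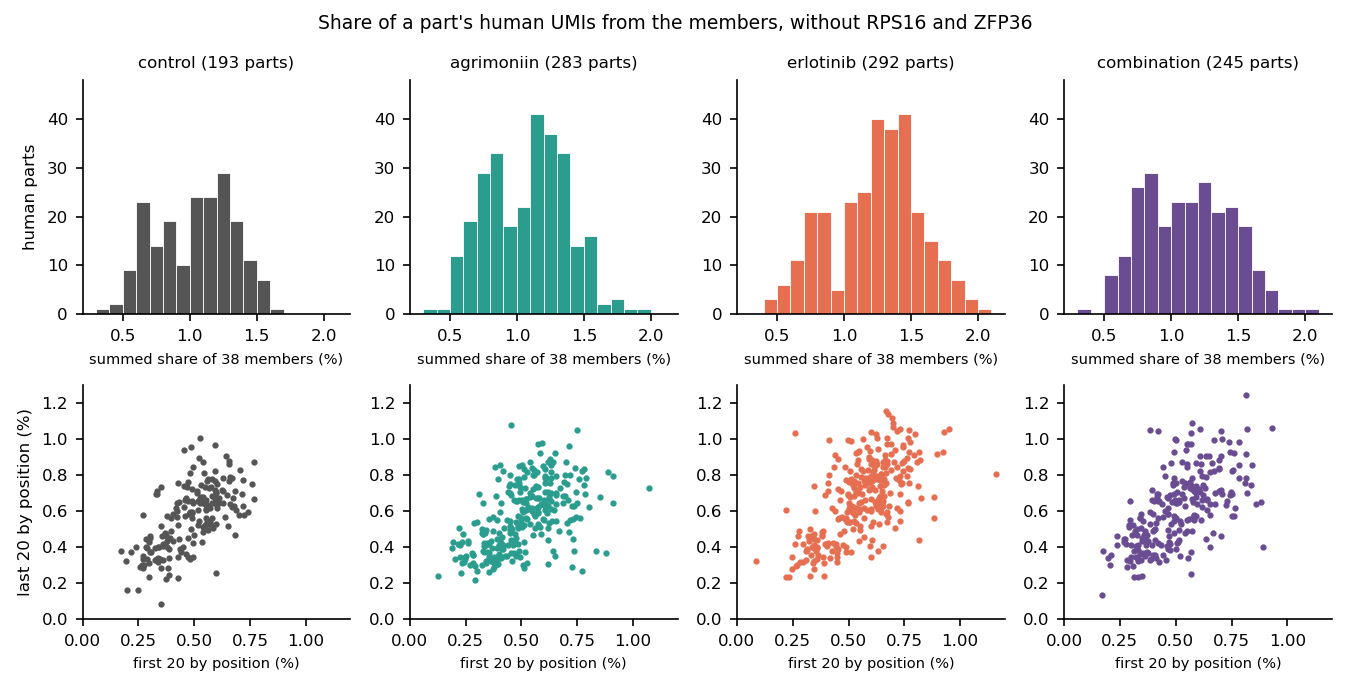
Top, number of human parts by the summed share (%) of 38 members, in 0.1% bins; bottom, share of the first 20 listed genes against that of the last 20, 1 point a part, both without RPS16 and ZFP36. Each library has parts on both sides of 0.9% to 1%, and the points rise together (correlation 0.65, 0.52, 0.62 and 0.62).

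Gene by gene, the share of each of the 4026 genes was correlated with the summed share of the other members, again without RPS16 and ZFP36 in the sum. Over all genes the median of the mean correlation was 0.01 and the 95th percentile 0.19. Of 28 members of at least 50 CPM, 23 were above 0 in 4 of 4 libraries, where 29.6% of all genes were, and 19 were above the 95th percentile. The median of the 28 was 0.24. PSMC4 had the highest value (0.54, from 0.46 to 0.62 over the libraries), followed by RPS16 (0.50), AKT2 (0.49, from 0.48 to 0.49) and TIMM50 (0.48). AKT2 is the last raised gene and lies at the far end of the stretch from EIF3K, which is not on the list and had 0.57 (0.55 to 0.62), the highest of all genes that are no members.

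Near the stretch, the 5 genes before EIF3K were at 0.04 to 0.18, among them PSMD8 at 0.09, and ACTN4, inside the stretch, was at 0.15, within the range of that flank. Farther upstream, LINC00665 (start at 36313067), named after its value was seen, was at 0.31 (0.25 to 0.37 over the libraries), above the 95th percentile. The 5 genes after AKT2 were at -0.14 to 0.15, with the listed PLD3 at -0.14. Inside the stretch SIRT2, which was not raised, was at 0.04, ZNF546 at -0.01, ZNF780B at 0.08 and MAP3K10 at 0.09, below the 95th percentile. The raised ZFP36 (0.141), PAK4 (0.168), HNRNPL (0.184) and PLEKHG2 (0.187) also lay below that percentile (0.194). Of 57 partner genes of at least 50 CPM, the median was 0.07, and each of the 16 members compared stood above all of its partners. These were few for many members. DYRK1B, NFKBIB, SIRT2, ECH1 and SAMD4B had only 1 partner each, and AKT2, PAK4 and ZFP36 had 2 each. The closest case was HNRNPL, at 0.184 against 0.175 for its highest partner, and SIRT2 was at 0.04 against -0.03. Thinning to 5000 UMIs gave a member median of 0.19 and a median of 0.01 over all genes. It makes the depth of parts equal, not the level of genes, and counting error weakens the correlation of low genes more. Most of the 16 members had a higher CPM than all of these partners, but SIRT2, PAK4, NFKBIB, HNRNPL and MRPS12 did not. The part of gene level in these comparisons, with partners and with all genes, was not tested.

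**Figure D5:**
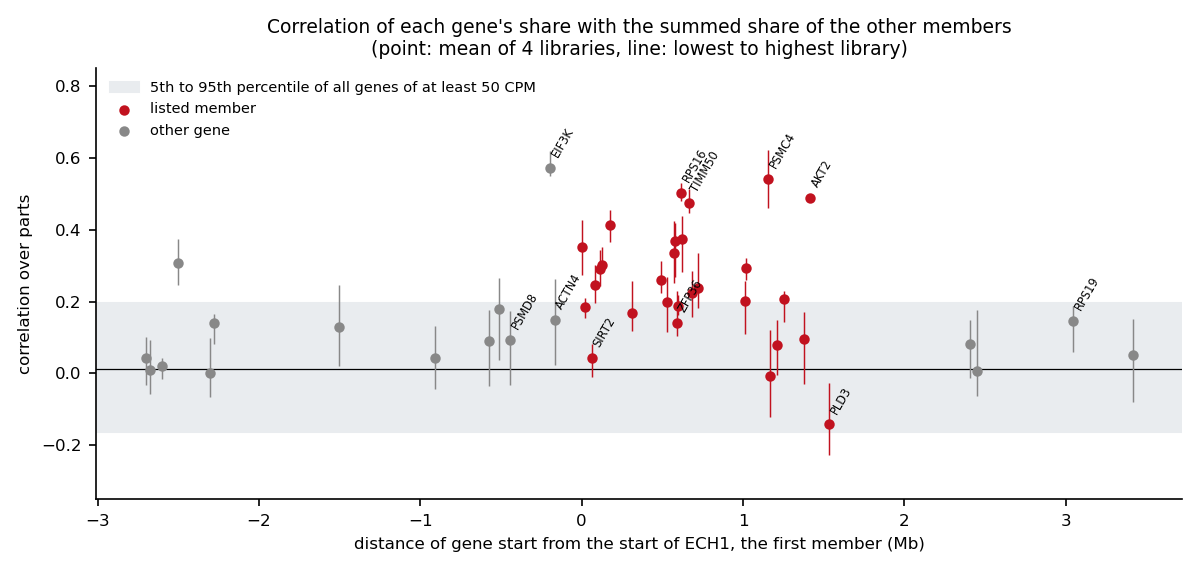
Correlation over human parts between each gene's share and the summed share of the other members, by distance in Mb from the start of ECH1; points are the mean of 4 libraries, lines run from the lowest to the highest library, and the band spans the 5th to 95th percentile of 4026 genes. EIF3K (0.57), PSMC4 (0.54), RPS16 (0.50) and AKT2 (0.49) stand highest, and PLD3 (-0.14) lies below 0.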

How the data were processed

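Deposited values were raw UMI counts per gene and barcode, made by the authors with Cell Ranger against hg38 and mm10, per the submitters' processing notes. The Cell Ranger version is not stated in the sources used here. Cells freed with collagenase II were loaded on a Chromium 3 prime kit for 8000 cells, per the labels' protocols, but barcodes had 27 bases, so the platform is in doubt. The files held 68886 features. Parts with at least 500 UMIs, 250 genes and at most 25% mitochondrial UMIs were kept. Doublets were not called, because all barcodes held both species. Summed counts were scaled to CPM, and ratios have exact 95% intervals conditional on both counts. The excess CV is the variance of a share less p(1-p)/n, as a square root over the mean. Gene positions are from GENCODE 29. The estimators were tested on simulated data, where the fold rule missed the first pass mark for lowered genes, because some fell under the filter on low values. The mark was then restated for genes above that filter and was met. Python 3.11.15, numpy 2.4.6, pandas 2.3.3 and scipy 1.17.1 were used.

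The members, roles, partner genes and tests were chosen with earlier results of these data known. Any member could be named. Values in every library were given for the 12 members of highest level, for those past 1.5-fold, for the ends of the stretch and for members below 0. Other genes were named if they were partners, lay among the 5 measured pairs nearest each end or between the members. With 1 library a group no test was made. Alternatives were other pseudocounts, filters, scalings, comparator parts, windows and thresholds, thinning to 5000 UMIs, and leaving out RPS16 and ZFP36, the last chosen after seeing the data. The value of 1 partner gene is not reported here.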

Additional observations from a re-analysis of the deposited data

How the results depend on the processing

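The median of the measured members (2.17 on the centred log2 scale) and the median difference from partner genes (2.15) kept their sign under every alternative run. In that order they were 2.65 and 2.65 with a pseudocount of 1 CPM, 1.44 and 1.43 with 50 CPM, 2.34 and 2.31 against mouse parts with more fibroblast marker UMIs, 2.31 and 2.27 against those with more macrophage marker UMIs, 2.46 and 2.30 in the erlotinib library alone, and 2.36 and 2.04 in the combination library alone. The first was 2.43 with a mouse CPM of at least 10 and 2.27 in the agrimoniin library alone. The run of raised windows (31) fell to 17 with no filter on low values. Under the other alternatives it ended at AKT2 but held 23 to 41 windows, starting between 35.995 and 38.9 Mb.

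The ratio of summed level for agrimoniin against control (0.994) was 0.982 without mitochondrial genes in the total, 0.977 with median-of-ratios factors, 1.01 in barcodes of at least 75% human UMIs, 0.909 at a mitochondrial share of at most 10%, 0.924 without RPS16 and 1.04 without RPS16 and ZFP36. For erlotinib against control (1.15) it was 1.13, 1.14, 1.19 and 1.12 under the first 4 of these and 1.17 without RPS16 and ZFP36. For the combination against control (1.08) it was 1.06 without mitochondrial genes, 1.10 at 75% human, 0.994 at 10% mitochondrial, which turns the direction, and 1.04 without RPS16. Against agrimoniin (1.09) the combination was at 1.10 with median-of-ratios factors, 1.11 as a mean over parts, 1.12 without RPS16 and 1.04 without RPS16 and ZFP36. Against erlotinib (0.940) it was at 0.952 as a mean over parts, 0.928 at 75% human, 0.886 at 10% mitochondrial, 0.902 without RPS16 and 0.923 without RPS16 and ZFP36.

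The count of members past the fold (0 in each comparison) became 6, 4, 4, 2 and 5 with no filter on low values for agrimoniin, erlotinib and combination against control and for the combination against agrimoniin and against erlotinib, where 28.1%, 28.4%, 27.9%, 27.8% and 28.9% of all genes passed. At a fold of 5 to 4 it was 8, 9, 4, 2 and 3, where 17.6%, 20.1%, 19.7%, 14% and 15.9% of all genes passed. It was 1 for agrimoniin and 3 for erlotinib at 10% mitochondrial, 1 for erlotinib at 75% human, and 1 for the combination against control without mitochondrial genes, with median-of-ratios factors and as a mean over parts.

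The excess CV (45.0%, 40.8%, 38.7% and 38.2% for control, agrimoniin, erlotinib and combination) became 61.7%, 51.2%, 55.4% and 52.2% without RPS16, 26.1%, 26.4%, 25.6% and 27.9% without RPS16 and ZFP36, and 25.02%, 26.7%, 26.2% and 29.1% when also thinned to 5000 UMIs. At 75% human it was 37.9% in control and 35.5% in agrimoniin. The correlation of both sides (0.55, 0.52, 0.45 and 0.48) became 0.30, 0.19, 0.15 and 0.16 without RPS16. Without RPS16 and ZFP36 it was 0.65 in control, 0.62 in erlotinib and 0.62 in the combination, and with thinning as well 0.42 in agrimoniin, 0.55 in erlotinib and 0.53 in the combination. Thinning alone gave 0.45 in agrimoniin and 0.41 in the combination. At 75% human it was 0.48 in control and 0.47 in agrimoniin, and without RPS16 and ZFP36 as well 0.61 in erlotinib and 0.61 in the combination. At 10% mitochondrial it was 0.40 in erlotinib.

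Of 331 values of single members under an alternative, 186 moved by less than the spread between libraries, 145 by more, and 0 whose main value was at or beyond 1 on the log2 scale (either way) changed sign. The cause of these changes was not tested. No paired analysis was possible because each group has 1 library. Counting error limits members under 20 CPM, and the spread between tumours of a group was not measured.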

Other observations

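Beyond the stretch, the share of its members also rose and fell with genes elsewhere, named here after their values were seen. The highest mean correlations of genes that are no members, after EIF3K, belonged to TUFM (0.40), a mitochondrial translation elongation factor, CFL1 (0.40), which severs actin filaments, C1QBP (0.40), a mitochondrial matrix protein, RPS21 (0.40), a ribosomal protein, and DDX21 (0.36), an RNA helicase of the nucleolus. The lowest belonged to GJA1 (-0.42), a gap junction protein, LAMP2 (-0.41), a lysosomal membrane protein, CD9 (-0.40), a tetraspanin, COL1A1 (-0.40), a collagen chain, NRP2 (-0.39), a co-receptor of semaphorins, and WWTR1 (-0.38), the coactivator TAZ. All of these had the same sign in 4 of 4 libraries. They are the ends of a ranking of 4026 genes, and no cause was tested.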
